A study of Mus musculus with 8 samples.

Results

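The genes described here are 9 immediate-early genes (*Fos*, *Fosb*, *Jun*, *Junb*, *Jund*, *Egr1*, *Atf3*, *Ier2* and *Dusp1*) and *Zfp36*, 10 of the 54188 genes in the table of counts. They were chosen by name as the rows carrying those symbols, and all 10 were among the 17650 genes that passed the filter on low counts. RNA was sequenced from myeloid cells that had been sorted for CD11b and Gr-1 out of the spleen (SP) or bone marrow (BM) of sanroque mice at 20 weeks of age. Sanroque mice are a lupus-prone strain on a C57BL/6 background, homozygous for the san allele of *Roquin*, so every group carries the mutation and there is no wild-type group. The 4 groups were SP Gr-1hi (libraries 5 and 6), SP Gr-1lo (7 and 8), BM Gr-1hi (9 and 10) and BM Gr-1lo (11 and 12), and none had received a treatment. The labels name the Gr-1hi cells granulocytic and the Gr-1lo cells monocytic myeloid-derived suppressor cells. The study describes the libraries of a group as independent biological replicates. It also calls the marrow cells autologous to the spleen cells. No source used here says which spleen library and which marrow library came from the same animal. Since dissociation and sorting can induce immediate-early genes, the libraries are given singly.

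Immediate-early genes are transcribed within minutes of a signal, without new protein synthesis, mostly through MAP kinases that activate serum response factor with its ternary complex partners and CREB. FOS and JUN family proteins pair to form the transcription factor AP-1. Several of the products end the response: DUSP1 dephosphorylates MAP kinases, and ZFP36 (tristetraprolin) binds AU-rich elements of cytokine mRNAs and speeds their decay. In granulocytes and monocytes ZFP36 is best known as a brake on TNF.

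Between 33453580 and 68316154 reads were counted on genes in a library. Levels are given as CPM, reads of a gene scaled to a common library size after TMM correction. The floor at 3 counts, which a gene with no read could still reach by counting error, lay at 0.0348 to 0.124 CPM, and every member was far above it in every library. *Ly6g*, which encodes the granulocyte antigen bound by antibodies to Gr-1, was at 330 and 495 CPM in SP Gr-1hi, 685 and 801 in BM Gr-1hi and 3.07 to 8.23 in the 4 Gr-1lo libraries. *Itgam* (CD11b) was at 734 CPM or more in all 8. The mice are labelled as female, yet libraries 5 and 7 held 12032 and 9898 counts of *Xist*, the X-inactivation RNA of females, and the other 6 libraries at most 5. *Ddx3y*, a gene of the Y chromosome, had 0 counts in library 5 and 33.7 to 82.6 CPM in the other 7, library 7 included. No marrow library matched library 5 in these genes. Both libraries with *Xist* came from SP, so these signs of sex are not balanced between SP and BM. Where a count of members or list genes called changes without libraries 5 and 7, that count is therefore given too, an alternative chosen after the data were seen.

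Promoter sequence was at hand for 8 of the 10 genes (RefSeq, GRCm38.p6), excluding *Egr1* and *Ier2*. The 250 bases before the RefSeq start of 4 of them are shown, because only these hold matches to the elements searched. Both strands of each window were searched for the cAMP response element TGACGTCA, the AP-1 site TGANTCA, the CArG box bound by serum response factor, the EGR site GCGNGGGCG and TATAAA. Matches are in capitals, and none overlap. *Fos* lies at chr12:85473640-85473889 on the plus strand, *Fosb* at chr7:19310046-19310295, *Dusp1* at chr17:26508473-26508722 and *Zfp36* at chr7:28379229-28379478, these 3 on the minus strand.
Fos: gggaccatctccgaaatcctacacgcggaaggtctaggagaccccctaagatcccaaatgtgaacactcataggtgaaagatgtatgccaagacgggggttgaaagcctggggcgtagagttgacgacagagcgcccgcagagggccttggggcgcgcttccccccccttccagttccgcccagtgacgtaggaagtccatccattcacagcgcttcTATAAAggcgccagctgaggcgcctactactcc
Fosb: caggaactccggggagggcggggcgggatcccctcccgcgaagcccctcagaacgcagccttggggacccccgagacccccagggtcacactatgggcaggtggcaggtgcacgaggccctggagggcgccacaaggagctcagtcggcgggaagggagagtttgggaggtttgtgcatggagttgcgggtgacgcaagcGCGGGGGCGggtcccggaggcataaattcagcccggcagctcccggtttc
Dusp1: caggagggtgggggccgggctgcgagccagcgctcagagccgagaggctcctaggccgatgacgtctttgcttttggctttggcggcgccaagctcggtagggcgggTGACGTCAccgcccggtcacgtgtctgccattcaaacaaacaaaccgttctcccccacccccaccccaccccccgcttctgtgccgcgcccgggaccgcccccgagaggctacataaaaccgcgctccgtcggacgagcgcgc
Zfp36: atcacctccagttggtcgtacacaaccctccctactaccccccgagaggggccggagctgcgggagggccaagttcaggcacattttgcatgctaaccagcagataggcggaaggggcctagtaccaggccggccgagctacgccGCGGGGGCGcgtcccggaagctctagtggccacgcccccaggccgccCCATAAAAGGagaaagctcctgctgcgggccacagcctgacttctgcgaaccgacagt

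In *Fos* the capitals mark TATAAA from base 33 to base 28 before the start. In *Dusp1* they mark the cAMP response element from base 143 to 136, which 1.55% of the 32851 RefSeq promoter windows of this length hold. In *Zfp36* they mark an EGR site from base 105 to 97 and a CArG box from base 58 to 49, and in *Fosb* an EGR site from base 50 to 42. The start is that of RefSeq: the GENCODE gene models of *Zfp36* and *Dusp1*, whose spans are given further on, reach beyond it, so that both windows lie inside these models. A CArG box was found in 1.47% of all windows, an EGR site in 4.70% and TATAAA in 12.4%. The AP-1 site, held by 6.75% of windows, had no match in the 8. Among these, the window of *Jund* ends at base 70697738 of chromosome 8, whereas its GENCODE model starts at 70698949. These are matches of letters, and no binding was measured.

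The first question was how the granulocytic and the monocytic subset differed in these genes. Gr-1hi cells held the higher level of 6 members in both tissues, namely *Fos*, *Junb*, *Jund*, *Ier2*, *Dusp1* and *Zfp36*, and the lower level of *Atf3*. In BM, 24.2% of all 17650 genes tested passed as higher in Gr-1hi (adjusted p of at most 0.05 and a fold change of at least 2) and 33.1% as lower, 57.3% in all. In SP these shares were 22.3% and 27.4%, 49.6% in all. The 7 of 10 members that passed in each tissue thus stand on a background in which about as many genes change as do not. Over all 10 members the median log2 fold change was 1.85 in BM and 1.87 in SP, against -0.17 and -0.09 over all genes tested. The libraries of the 2 subsets did not overlap for 9 of the 10 in BM, as for 88.9% of all genes, and for 7 in SP, as for 86.2%. Libraries 5 and 7 are not part of the BM groups, and without them each SP group holds 1 library, so that overlap has no meaning. At the stricter thresholds of the study for this comparison, an adjusted p below 0.01 and a fold above 8, 1 member passed in BM (*Atf3*) against 16.7% of all genes, and 0 in SP against 7.37%. Summed over the 10 members, the level was 6132 and 11918 CPM in SP Gr-1hi, 5944 and 6798 in BM Gr-1hi, 2670 and 2857 in SP Gr-1lo and 1919 and 2255 in BM Gr-1lo. In sorted cells read in bulk, a lower level in every cell and fewer cells with the RNA cannot be told apart.

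**Figure D1:**
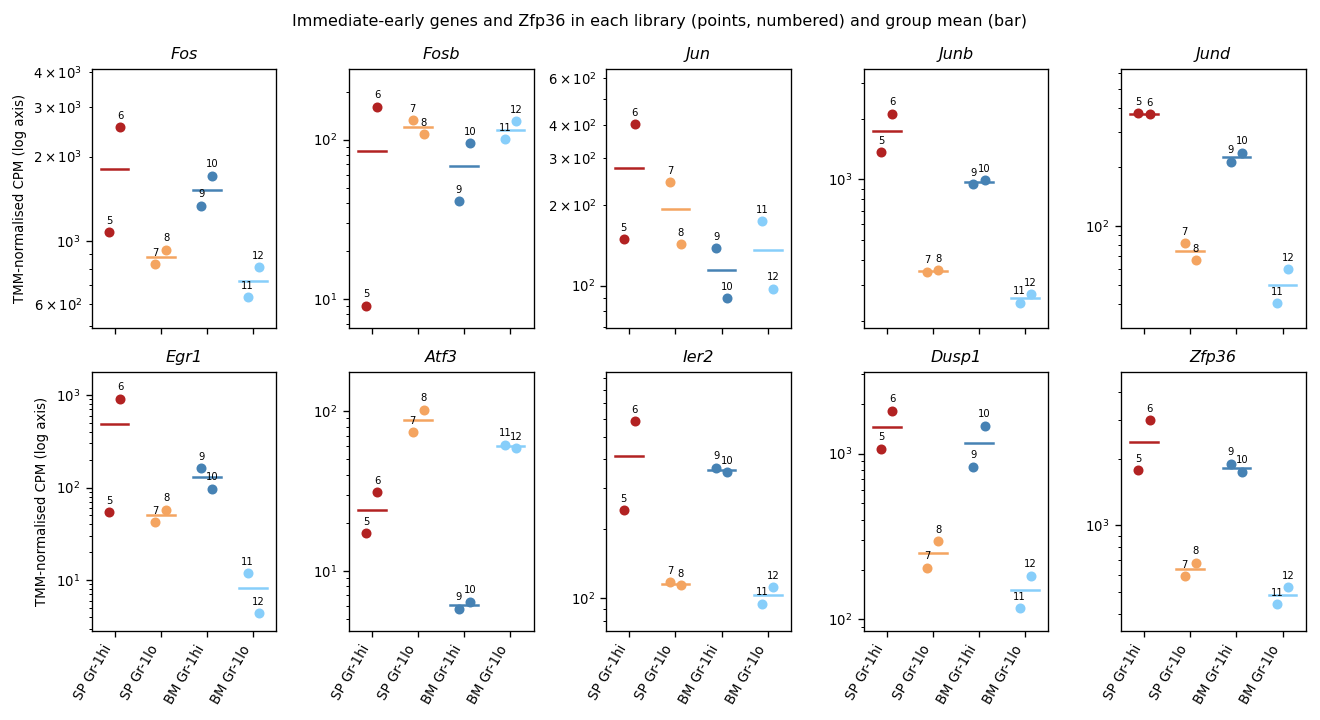
TMM-normalised CPM (log axis, a scale of its own for each gene) of the 10 genes in each of the 8 libraries, drawn as points with the library's number, and the mean of each group as a bar. All Gr-1hi libraries lie above all Gr-1lo libraries for *Fos*, *Junb*, *Jund*, *Ier2*, *Dusp1* and *Zfp36*, *Atf3* runs the other way, and libraries 5 and 6 stand far apart for *Fosb* and *Egr1*.

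*Junb* (ENSMUSG00000052837, chromosome 8 from 84974484 to 84978718 of GRCm38), a JUN protein that is a weaker activator than JUN, was at 1365 and 2110 CPM in SP Gr-1hi and 949 and 991 in BM Gr-1hi. It was at 349 and 355 CPM in SP Gr-1lo and 245 and 271 in BM Gr-1lo. All 4 Gr-1hi libraries lay above all 4 Gr-1lo libraries, and no 2 groups overlapped. Its log2 fold change between Gr-1hi and Gr-1lo was 1.91 in BM (SE 0.18, adjusted p = 1.83e-05) and 2.30 in SP (SE 0.19, adjusted p = 9.81e-06). *Jund* (ENSMUSG00000071076, chromosome 8 from 70698949 to 70700616), the JUN protein that resting cells also hold, had the most even libraries of the 10 in SP Gr-1hi, and was at 377 and 370 CPM in SP and 212 and 236 in BM. The Gr-1lo libraries held 81.7 and 66.7 CPM in SP and 40.3 and 60.1 in BM. The 4 groups followed the same order as for *Junb*, again without overlap. The log2 fold change was 2.16 in BM (SE 0.19, adjusted p = 9.70e-06) and 2.33 in SP (SE 0.19, adjusted p = 9.52e-06). An antisense gene, *Gm11175*, overlaps 877 exonic bases of *Jund*, but it was at 0.533 to 3.65 CPM and the library kit keeps the strand.

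*Fos* (ENSMUSG00000021250, chromosome 12 from 85473890 to 85477273) was one of the most abundant members. It was at 1075 and 2552 CPM in SP Gr-1hi, 1337 and 1711 in BM Gr-1hi, 832 and 933 in SP Gr-1lo and 632 and 812 in BM Gr-1lo. Gr-1hi and Gr-1lo libraries did not overlap, although library 5 was close to the SP Gr-1lo pair. The log2 fold change was 1.08 in BM (SE 0.38, adjusted p = 0.0362) and 1.04 in SP (SE 0.38, adjusted p = 0.0436), just past a fold of 2. These were the least firm of the calls. In TPM, which divide by gene length and carry no TMM factor, the *Fos* libraries overlapped, with group means of 1081 in BM Gr-1hi against 944 in BM Gr-1lo and 1524 in SP Gr-1hi against 1106 in SP Gr-1lo. With quantile-normalized TPM the log2 fold change of *Fos* was 0.30 in BM (adjusted p = 0.488) and 0.36 in SP (adjusted p = 0.43). Without library 6 that in SP was 0.26 (adjusted p = 0.236), and it also missed the call without any 1 of libraries 7 to 12. In BM it missed the call without any 1 of libraries 7, 8, 10, 11 and 12.

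Neither *Fosb* nor *Jun* passed between the subsets. *Fosb* (ENSMUSG00000003545, chromosome 7 from 19302696 to 19310051), a second FOS protein, was at 9.07 and 160 CPM in SP Gr-1hi and 40.9 and 95.0 in BM Gr-1hi. In the Gr-1lo libraries it was at 133 and 108 CPM in SP and 101 and 130 in BM. In BM both Gr-1hi libraries lay below both Gr-1lo libraries, and in SP they lay on either side of them. Its log2 fold change between Gr-1hi and Gr-1lo was -0.76 in BM (SE 1.21, adjusted p = 0.592) and -0.51 in SP (SE 1.21, adjusted p = 0.725), with errors larger than the values. Without library 6 the value for *Fosb* in SP was -3.75 (adjusted p = 0.00982), and without library 5 it was 0.39 (adjusted p = 0.564). *Jun* (ENSMUSG00000052684, chromosome 4 from 95049034 to 95052222), the founding JUN protein, was at 149 and 401 CPM in SP Gr-1hi, 244 and 143 in SP Gr-1lo, 138 and 89.5 in BM Gr-1hi and 175 and 97.2 in BM Gr-1lo. Every pair of groups that neighbour each other in the order of *Jun* means overlapped. Its log2 fold change was -0.25 in BM (SE 0.56, adjusted p = 0.699) and 0.51 in SP (SE 0.56, adjusted p = 0.448).

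*Egr1* (ENSMUSG00000038418, chromosome 18 from 34859823 to 34864984), a zinc-finger activator, had the widest range. It was at 54.2 and 913 CPM in SP Gr-1hi, 163 and 97.5 in BM Gr-1hi, 42.0 and 58.0 in SP Gr-1lo and 11.9 and 4.40 in BM Gr-1lo. In BM the subsets did not overlap, and in SP library 5 fell between the Gr-1lo libraries. The log2 fold change was 4.01 in BM (SE 1.43, adjusted p = 0.0501) and 3.27 in SP (SE 1.35, adjusted p = 0.0807), and neither passed. For *Egr1* in BM, 8 of 15 alternatives did call it, among them DESeq2 (log2 fold change 4.16, adjusted p = 0.00147) and the fits without library 5 (4.08, adjusted p = 0.00738) or without library 6 (4.08, adjusted p = 0.00715). In SP the value was 4.16 without library 5 (adjusted p = 0.00965) and 0.09 without library 6 (adjusted p = 0.92).

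*Ier2* (ENSMUSG00000053560, chromosome 8 from 84661331 to 84662852), a nuclear regulator of transcription, was at 242 and 585 CPM in SP Gr-1hi, 368 and 351 in BM Gr-1hi, 117 and 114 in SP Gr-1lo and 94.7 and 112 in BM Gr-1lo. The 2 subsets did not overlap in either tissue. The log2 fold change was 1.80 in BM (SE 0.37, adjusted p = 0.0042) and 1.84 in SP (SE 0.37, adjusted p = 0.00415), and with no genes filtered out *Ier2* missed the call in both (adjusted p = 0.0553 and 0.0563).

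Both feedback regulators were higher in Gr-1hi cells too. *Dusp1* (ENSMUSG00000024190, chromosome 17 from 26505590 to 26562128) was at 1070 and 1810 CPM in SP Gr-1hi and 833 and 1473 in BM Gr-1hi, against 206 and 297 in SP Gr-1lo and 117 and 184 in BM Gr-1lo. Among the 7 called members it had the largest increase in both tissues, a log2 fold change of 2.94 in BM (SE 0.43, adjusted p = 0.000706) and 2.52 in SP (SE 0.42, adjusted p = 0.00159). *Zfp36* (ENSMUSG00000044786, chromosome 7 from 28376784 to 28380253) was at 1773 and 2984 CPM in SP Gr-1hi, 1897 and 1747 in BM Gr-1hi, 592 and 680 in SP Gr-1lo and 441 and 526 in BM Gr-1lo. No Gr-1hi library came near a Gr-1lo library. The log2 fold change of *Zfp36* was 1.91 in BM (SE 0.23, adjusted p = 8.38e-05) and 1.90 in SP (SE 0.23, adjusted p = 0.00011), and the difference between the tissues was -0.01 (SE 0.31, adjusted p = 0.989).

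*Atf3* (ENSMUSG00000026628, chromosome 1 from 191170296 to 191218039), a stress-induced member of the ATF/CREB family that represses inflammatory genes in macrophages, went the other way. It was at 74.0 and 102 CPM in SP Gr-1lo and 61.5 and 58.8 in BM Gr-1lo, but at 17.1 and 31.0 in SP Gr-1hi and 5.79 and 6.40 in BM Gr-1hi. The 4 groups did not overlap in any pairing. Its log2 fold change between Gr-1hi and Gr-1lo was -3.30 in BM (SE 0.29, adjusted p = 1.62e-05) and -1.87 in SP (SE 0.26, adjusted p = 0.000333). The gap between the subsets was thus narrower in SP, by 1.43 on the log2 scale (SE 0.38, adjusted p = 0.0412). *Atf3* was the only member of the 10 to pass this test of the difference between tissues, which 9.74% of all genes tested passed. Without library 6 that difference was 0.85 (adjusted p = 0.0365), under a fold of 2. It lost the call without any other library but library 5, with an adjusted p of 0.0592 to 0.137, and kept it without libraries 5 and 7 together (1.61, adjusted p = 0.00491).

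The subsets also differed in markers of the cell types they are named for. All 10 neutrophil markers were higher in Gr-1hi in both tissues, with summed levels of 75847 to 96805 CPM in SP Gr-1hi and 131609 to 140760 in BM Gr-1hi, against 7863 to 9097 and 4079 to 4203 in the Gr-1lo libraries of SP and BM. Of the 9 monocyte markers, 8 were lower in Gr-1hi in both tissues, at 1500 to 1513 CPM in SP and 1408 to 1915 in BM against 7458 to 7499 and 9729 to 10574. No marker of either list was at 0. With libraries 5 and 7 left out, 7 monocyte markers were called in BM and 3 in SP.

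Markers of other cell types moved with the subset as well. All 10 B cell markers were higher in Gr-1hi in SP (360 to 537 CPM summed against 66.7 to 83.8), and 7 were higher and 1 lower in BM (16.3 to 19.9 against 8.07 to 9.90). All 10 T cell markers were higher in SP (59.7 to 93.4 CPM against 18.0 to 25.2), or 5 without libraries 5 and 7, and 4 in BM (12.5 to 15.1 against 2.34 to 2.72). Of the splenic macrophage markers 5 of 10 were higher and 1 lower in SP (968 to 1151 CPM against 312 to 347), and 7 and 2 in BM (613 to 684 against 226 to 272). Of 8 dendritic cell markers 4 were higher in SP (101 to 102 CPM against 19.4 to 24.3), and 4 higher and 1 lower in BM (26.8 to 40.4 against 5.48 to 9.05). Plasma cell and erythroid markers gave 2 and 1 of 7 higher in SP, and 4 lower and 4 higher in BM. With both libraries left out the counts in SP were 4 higher for splenic macrophage, 3 for dendritic cell, 1 for plasma cell and 6 for erythroid markers, and in BM 8, 3 and 6 higher for B cell, dendritic cell and erythroid markers. Erythroid markers in BM fell to 0 without library 11 and 2 without library 10 or 12, and those in SP went to 6 without library 5 and 0 without library 6, 7, 9, 10, 11 or 12. T cell markers in BM fell to 2 without library 9. The part of any of these cells in the differences above was not tested.

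The calls of *Junb*, *Jund*, *Dusp1*, *Zfp36* and *Atf3* between the subsets held in all 15 alternatives in both tissues, but their sizes varied. In BM the log2 fold changes ran from 1.31 to 2.06 for *Junb*, 1.79 to 2.45 for *Jund* and 2.38 to 3.35 for *Dusp1*. Those of *Zfp36* ran from 1.27 to 2.06 and those of *Atf3* from -3.41 to -3.08. The TMM factors that CPM are divided by were 0.724 to 0.863 in the Gr-1hi libraries and 1.26 to 1.30 in the Gr-1lo libraries. Without libraries 5 and 7 the same 7 members were called in SP, and in BM also *Egr1* (3.96, adjusted p = 0.0279).

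**Figure D2:**
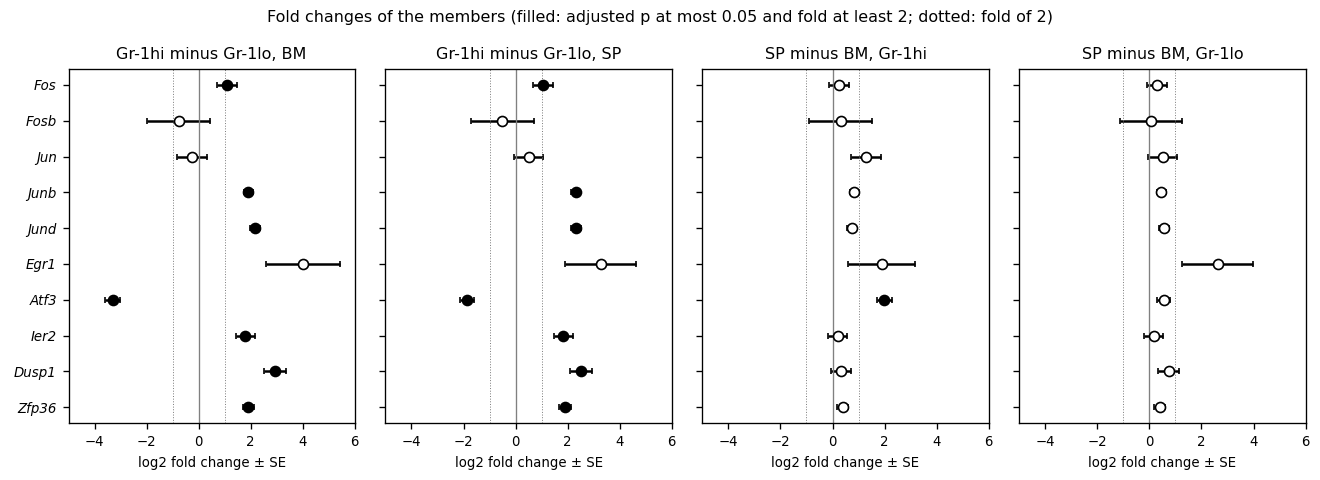
Log2 fold changes (points) with their SE (bars) for the 10 genes in the 4 comparisons, n = 2 libraries per group. Filled points passed the test, which 7 members did between the subsets in each tissue, 1 between SP and BM in Gr-1hi and none in Gr-1lo, and *Fosb* and *Egr1* carry the widest errors.

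The second question was whether cells of the same subset differed between SP and BM. In Gr-1lo cells none of the 10 members passed, against 4.06% of all genes tested (edgeR's quasi-likelihood test). All 10 had a positive log2 fold change, from 0.06 for *Fosb* to 2.63 for *Egr1*, with a median of 0.48 against -0.01 over all genes. The unadjusted p was under 0.05 for 2 of them. The SP and BM libraries did not overlap for 8 of the 10, and for 59.7% of all genes tested; without libraries 5 and 7 these were 8 and 80.8%. *Egr1* had the largest value, 42.0 and 58.0 CPM in SP against 11.9 and 4.40 in BM, but with an SE of 1.36 (adjusted p = 0.366). *Zfp36* differed by 0.40 (SE 0.22, adjusted p = 0.367) and *Dusp1* by 0.74 (SE 0.40, adjusted p = 0.364). None passed either in any of the alternatives, those without a library included.

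In Gr-1hi cells 1 of the 10 passed, against 15.5% of all genes tested. *Atf3* was higher in SP by a log2 fold change of 1.98 (SE 0.29, adjusted p = 0.00218), and it kept the call in all 15 alternatives, at 1.41 without library 6 and 2.36 without libraries 5 and 7. *Junb* (0.84, SE 0.18, adjusted p = 0.00878) and *Jund* (0.74, SE 0.18, adjusted p = 0.015) passed on p but not on the fold of 2, so that 3 members passed on p alone, as did 34.0% of all genes. Without libraries 5 and 7 *Junb* passed both, at 1.14 (adjusted p = 0.000659). All 10 values were again positive, with a median of 0.56 against 0.03 over all genes, but the libraries did not overlap for only 4 members, against 67.8% of all genes. Without libraries 5 and 7, when library 6 alone stands for SP Gr-1hi, they did not overlap for 10, against 80.3% of all genes. The sign of 6 members turned without library 6. In that fit the log2 fold change was -0.58 for *Fos* (adjusted p = 0.0433), -2.98 for *Fosb* (adjusted p = 0.031, past both thresholds), -1.35 for *Egr1* (adjusted p = 0.245), -0.65 for *Ier2* (adjusted p = 0.0031), -0.18 for *Dusp1* (adjusted p = 0.811) and -0.12 for *Zfp36* (adjusted p = 0.537). With all 8 libraries these were 0.25, 0.32, 1.89, 0.20, 0.32 and 0.38. Without library 9 the sign turned too for *Fosb* (-0.25, adjusted p = 0.926) and *Dusp1* (-0.11, adjusted p = 0.863).

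Markers of other cell types moved with the tissue, where 15.5% of all genes tested passed in Gr-1hi and 4.06% in Gr-1lo. All 10 B cell markers passed as higher in SP Gr-1hi, with 360 to 537 CPM summed against 16.3 to 19.9 in BM Gr-1hi, as did 8 of 10 T cell markers (59.7 to 93.4 against 12.5 to 15.1) and all 7 plasma cell markers tested (288 to 392 against 101 to 102). Of the splenic macrophage markers 6 of 10 passed (968 to 1151 against 613 to 684), of the dendritic cell markers 4 of 8 (101 to 102 against 26.8 to 40.4, with 1 lower), and of the erythroid markers 6 of 7 (218 to 735 against 35.9 to 44.1). Of the monocyte markers, whose cells hold more *Atf3* here, 4 of 9 passed as higher in SP Gr-1hi, while their summed level of 1500 to 1513 CPM lay within the 1408 to 1915 of BM Gr-1hi. With libraries 5 and 7 left out the counts were 1 for monocyte and 3 for dendritic cell markers, the latter with none lower. Splenic macrophage markers gave 3 without library 10, and monocyte markers 2 without library 5, and 4 higher and 4 lower without library 9. In Gr-1lo cells 9 of 10 B cell markers passed as higher in SP (66.7 to 83.8 CPM summed against 8.07 to 9.90), all 10 T cell markers (18.0 to 25.2 against 2.34 to 2.72), 5 of 7 plasma cell (321 to 331 against 231 to 256), 6 of 10 splenic macrophage (312 to 347 against 226 to 272), 3 of 8 dendritic cell (19.4 to 24.3 against 5.48 to 9.05) and all 7 erythroid markers (167 to 233 against 7.76 to 8.35). The plasma cell count fell to 1 without library 8, 2 without library 11 and 3 without library 12, and the erythroid count to 3 without library 7 and 0 without library 8, 11 or 12. Among the defining markers, *Klf1* was at 0 counts in library 5 and in both BM Gr-1hi libraries and *Cr2* in library 11. The part of these cells in the value of *Atf3*, or in any other difference between SP and BM, was not tested.

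By the median over these genes, the 2 SP Gr-1hi libraries differed more than the 2 libraries of any other group. Library 6 held the higher level for 9 of the 10 members, and for 49.4% of all genes tested. The members' median log2 ratio of library 6 to library 5 was 1.05, and 5 of 10 were at least 2-fold apart, against 8.04% of all genes. *Fosb* was 17.6-fold and *Egr1* 16.8-fold higher in library 6, differences that 10 and 11 of the 17650 genes equal or exceed (0.0567% and 0.0623%). *Jun* was 2.69-fold higher, *Ier2* 2.42-fold and *Fos* 2.37-fold. *Junb*, *Dusp1*, *Zfp36* and *Atf3* were 1.55-fold to 1.81-fold higher, and *Jund* was level (1.02-fold lower). In the other groups the median absolute log2 ratio of the members was 0.29 for SP Gr-1lo, 0.25 for BM Gr-1hi and 0.36 for BM Gr-1lo, beside 0.14, 0.22 and 0.15 over all genes and 0.24 in SP Gr-1hi.

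**Figure D3:**
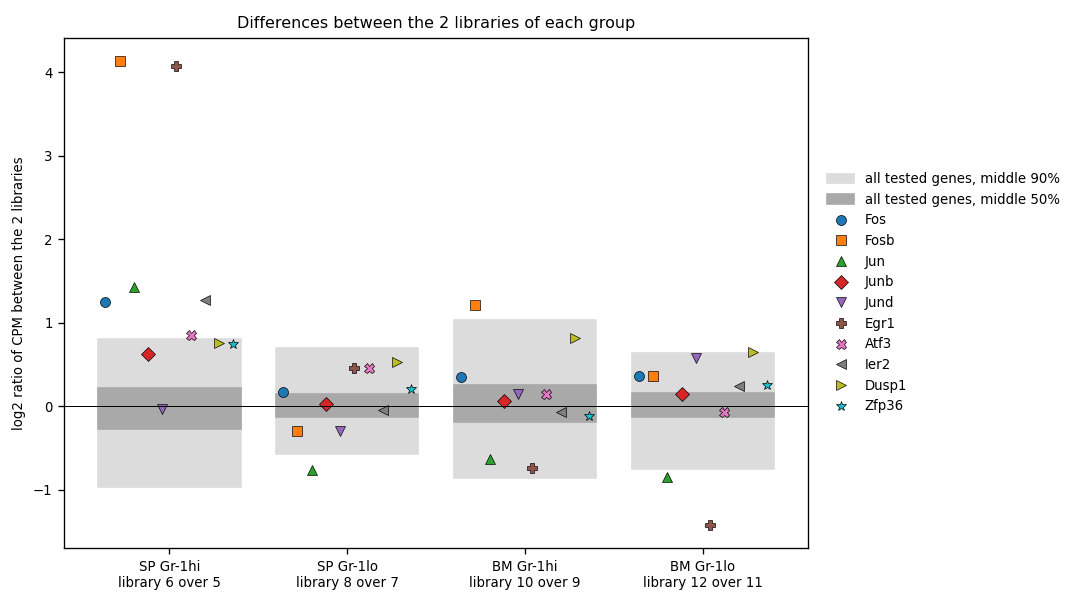
Log2 ratio of CPM between the 2 libraries of each group, with 1 symbol per member and grey bands for the middle 50% and the middle 90% of all 17650 genes tested. In SP Gr-1hi, *Fosb* (4.14) and *Egr1* (4.07) lie far above the bands and *Fos*, *Jun*, *Ier2* and *Atf3* just above them, while 1 to 3 members leave the wider band in each other group.

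Other quantities separated libraries 5 and 6 as well. Of 27 other immediate-early genes 21 were higher in library 6 and of the 6 ZFP36 target mRNAs tested 5, beside 49.4% of all genes tested. Heat shock genes were near level, with 5 of 9 higher in library 6, a median log2 ratio of 0.066 and 0 at least 2-fold apart. All 7 erythroid markers were higher in library 6 (218 against 735 CPM summed), and none of 10 B cell, 10 T cell and 7 plasma cell markers was (537 against 360, 93.4 against 59.7 and 392 against 288 CPM summed). Of the 10 neutrophil markers 8 were higher in library 6 (75847 against 96805 CPM). Library 5 is also the one with *Xist* and without *Ddx3y*. The part of cell composition, sex or handling in the difference was not tested, and with 1 library on each side these cannot be told apart.

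In TPM, which allow levels of different genes to be set side by side, *Junb* (1240), *Zfp36* (1068) and *Fos* (956) led in library 5, and *Fos* (2093), *Junb* (1769) and *Zfp36* (1659) in library 6, so that the order within SP Gr-1hi was not the same in both. *Dusp1* came next in each (676 and 1055). In BM Gr-1hi the order was *Fos* (976 and 1187), *Zfp36* (938 and 821), then *Junb* (708 and 702) and *Dusp1* (432 and 726), which changed places in library 10. In the Gr-1lo groups *Fos* led with means of 1106 TPM in SP and 944 in BM, followed by *Zfp36* with 540 and 429 and *Junb* with 451 and 345, in this order in each of the 4 libraries. *Atf3* was the lowest in BM Gr-1hi (4.62 and 4.85 TPM, below *Fosb* at 11.2 and 24.8) and in library 6 (27.8), while in library 5 *Fosb* (3.04) lay below *Atf3* (16.6). *Egr1* was the lowest in both Gr-1lo groups, at 32.8 TPM in SP and 5.61 in BM. Across the groups, the means of *Fos*, *Junb*, *Jund*, *Egr1*, *Ier2*, *Dusp1* and *Zfp36* in CPM ran in 1 order, SP Gr-1hi, BM Gr-1hi, SP Gr-1lo and BM Gr-1lo. For *Junb* and *Jund* no neighbours in that order overlapped, and for the other 5 SP Gr-1hi overlapped BM Gr-1hi. For *Atf3* the order was SP Gr-1lo, BM Gr-1lo, SP Gr-1hi and BM Gr-1hi.

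Most of the other immediate-early genes tested passed as higher in Gr-1hi cells as well. Of 27, 18 passed as higher and 3 as lower in BM, where 24.2% and 33.1% of all genes did. In SP it was 19 and 2, where 22.3% and 27.4% of all genes did, and 17 and 1 without libraries 5 and 7. The medians were 1.80 in BM and 1.88 in SP. The most abundant were *Btg1*, *Klf6* and *Btg2*. *Btg1*, which encodes an antiproliferative protein, was at 1441 and 1729.6 CPM in SP Gr-1hi and 274 to 413 in the 4 Gr-1lo libraries, and its log2 fold change was 1.90 in BM (adjusted p = 2.90e-06) and 2.11 in SP (adjusted p = 3.27e-06). *Klf6*, a zinc-finger factor, changed by 1.87 and 1.60 (adjusted p = 7.04e-06 and 2.52e-05), and *Btg2*, a relative of *Btg1*, by 2.84 and 2.38 (adjusted p = 4.07e-05 and 0.000131). The 3 that were lower in BM were *Nr4a2*, *Myc* and *Klf4*, named here after their values were seen. Between SP and BM, 15.5% of all genes tested passed in Gr-1hi and 4.06% in Gr-1lo, in either direction. Of the 27, in Gr-1hi 8 were higher in SP and none lower. These counts were 5 and 0 without libraries 5 and 7, 4 and 0 without library 9, 5 and 0 without library 10, and 5 and 1 without library 6. In Gr-1lo 1 was higher and 1 lower, 5 and 1 without library 5, library 6 or libraries 5 and 7, 2 and 1 without library 7, and 0 and 1 without library 8.

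Of 13 AP-1 partners, 6 were higher and 2 lower in Gr-1hi in BM, and 6 and 1 in SP (6 and 1, and 6 and 0, without libraries 5 and 7). Between the subsets 57.3% of all genes tested passed in either direction in BM and 49.6% in SP. Between SP and BM 15.5% passed in Gr-1hi and 4.06% in Gr-1lo. *Fosl2*, which encodes FRA-2, was at 527 to 633 CPM in the Gr-1hi libraries and 97.5 to 122 in the Gr-1lo libraries, a log2 fold change of 2.38 in BM (adjusted p = 4.62e-07) and 2.51 in SP (adjusted p = 8.90e-07). *Mafg*, a small MAF protein, changed by 1.86 and 1.23 (adjusted p = 6.29e-06 and 0.000104; in SP 0.94 without library 6, under a fold of 2), and *Atf4*, the effector of the integrated stress response, by 0.39 and 0.31 (adjusted p = 0.099 and 0.18). *Batf3*, which pairs with JUN proteins and was named after its values were seen, was the 1 partner to pass between SP and BM in Gr-1lo. It was at 1.21 and 1.34 CPM in SP Gr-1hi against 0.0374 and 0.124 in BM Gr-1hi, the latter at 1 and 3 counts, and at 2.72 and 2.70 in SP Gr-1lo against 0.799 and 0.831 in BM Gr-1lo (log2 fold change 1.73, SE 0.28, adjusted p = 0.00843). That call of *Batf3* was lost without library 8, 11 or 12 (adjusted p = 0.0651, 0.0731 and 0.0742), and on quantile-normalized TPM *Batf3* passed in neither subset (adjusted p = 0.558 in Gr-1hi and 1 in Gr-1lo). In Gr-1hi 3 of the 13 were higher in SP and none lower, 1 and 0 without library 5 or libraries 5 and 7, 3 and 3 without library 6, and 3 and 2 without library 10.

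Of 15 genes of the MAP kinase pathway tested, 6 were higher and 3 lower in Gr-1hi in BM, and 5 and 1 in SP (5 and 3, and 4 and 2, without libraries 5 and 7). *Mapk3* (ERK1) changed by a log2 fold change of 1.91 in BM (adjusted p = 6.28e-07) and 1.12 in SP (adjusted p = 1.61e-05; 0.96 without library 6), and *Mapk14* (p38 alpha) by 1.04 and 0.76 (adjusted p = 6.39e-06 and 6.13e-05), in SP under a fold of 2, as in BM without libraries 5 and 7 (0.99). On quantile-normalized TPM *Mapk3* in SP (0.75) and *Mapk14* in BM (0.64) were under a fold of 2 as well. Between the subsets 57.3% of all genes tested passed in BM and 49.6% in SP, and between SP and BM 15.5% in Gr-1hi and 4.06% in Gr-1lo. The list was chosen to hold many DUSP phosphatases. Between SP and BM 4 of its genes passed in each subset, all of them DUSP phosphatases and all higher in SP. In Gr-1hi it was 3 without libraries 5 and 7, and 4 with 1 gene lower without library 6. Of these, *Dusp2* and *Dusp16* passed in both and were named after their values were seen. *Dusp2*, which acts on ERK and p38, was at 17.2 and 20.8 CPM in SP Gr-1hi against 2.21 and 2.35 in BM Gr-1hi, and at 13.4 and 13.1 in SP Gr-1lo against 3.95 and 2.93 in BM Gr-1lo. Its log2 fold change was 3.06 in Gr-1hi (SE 0.19, adjusted p = 9.29e-05) and 1.95 in Gr-1lo (SE 0.17, adjusted p = 0.00057). *Dusp16*, which acts on JNK, changed by 2.75 (SE 0.20, adjusted p = 0.000126) and 2.26 (SE 0.21, adjusted p = 0.00069), the latter lost on quantile-normalized TPM (1.83, adjusted p = 1). *Dusp1* itself passed in neither.

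Few genes that work with ZFP36 in mRNA decay passed between the subsets, where 57.3% of all genes tested did in BM and 49.6% in SP. Of 11 relatives and decay factors, 1 was higher and 1 lower in Gr-1hi in BM, and 3 and 1 in SP, or 2 and 1 without libraries 5 and 7. In BM it was 3 and 1 without library 10. *Hnrnpd* was the one lower in both tissues, and *Rc3h2* was higher in both, with *Zfp36l1* and *Zc3h12a* higher in SP, all 4 named after their values were seen. *Zfp36l2*, a relative that binds the same elements, changed by a log2 fold change of 0.61 in BM (adjusted p = 0.00352) and 0.66 in SP (adjusted p = 0.00264), under a fold of 2. *Mapkapk2*, the kinase that phosphorylates ZFP36 and restrains it, had values of -0.59 and -0.68 (adjusted p = 0.000219 and 0.000113), also under it, but past it on quantile-normalized TPM (-1.03 and -1.04). *Cnot1*, the scaffold of the CCR4-NOT deadenylase, stayed within 0.06 of 0 (adjusted p = 0.5 and 0.558), with a sign that turned under other scalings in SP.

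Of all genes tested, 24.2% passed as higher in Gr-1hi in BM and 22.3% in SP. Between SP and BM 15.5% passed in Gr-1hi and 4.06% in Gr-1lo. Most messages known as ZFP36 targets that could be tested were higher in Gr-1hi cells, as *Zfp36* was. Of 11, *Il6*, *Il10*, *Il23a*, *Csf2* and *Cxcl1* did not pass the filter on low counts, and of the other 6, 5 were higher in Gr-1hi in both tissues. In SP it was 3 without libraries 5 and 7 or without library 8, and in BM 3 without library 11. *Il1b* was at 3135 and 3509.7 CPM in SP Gr-1hi, 922 and 1301 in BM Gr-1hi, 26.4 and 67.9 in SP Gr-1lo and 5.45 and 11.4 in BM Gr-1lo. Its log2 fold change between the subsets was 7.04 in BM (adjusted p = 8.85e-05) and 6.13 in SP (adjusted p = 0.000171). *Cxcl2*, a neutrophil-attracting chemokine, changed by 5.59 and 3.60 (adjusted p = 0.00107 and 0.00519). *Ptgs2*, cyclooxygenase-2, changed by 3.93 and 3.42 (adjusted p = 0.0189 and 0.0281) and missed the call in both with no genes filtered out (adjusted p = 0.0809 and 0.112). Leaving out library 11 or 12 ended both calls of *Ptgs2*, and leaving out library 7 or 8 that in SP, with an adjusted p of 0.0668 to 0.151. *Cxcl2* missed it in SP without library 8 (adjusted p = 0.0597) and without libraries 5 and 7 (adjusted p = 0.0642). Between SP and BM 1 of the 6 passed as higher in SP in each subset, *Il1a* in both, and 2 without libraries 5 and 7. In Gr-1hi it was 1 higher and 2 lower without library 6, and 2 higher without library 5, 7 or 8. In Gr-1lo it was 2 without library 7 and 0 without library 8, 11 or 12.

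Heat shock genes, a common readout of stress, did not follow the immediate-early genes between the subsets. Of all genes tested, 33.1% passed as lower in Gr-1hi in BM and 27.4% in SP. Of 9 heat shock genes tested, none passed as higher in Gr-1hi and 7 passed as lower, in both tissues. The other 2, *Dnaja1* and *Dnajb1*, were higher in both on the adjusted p alone. *Hspa8*, the constitutive HSP70, had a log2 fold change of -1.72 in BM (adjusted p = 1.14e-06) and -1.78 in SP (adjusted p = 2.06e-06), and *Hsp90aa1*, the inducible HSP90, of -2.30 and -1.35 (adjusted p = 7.91e-07 and 2.03e-05). *Dnaja1*, an HSP40 cochaperone, changed by 0.52 and 0.46 (adjusted p = 0.0099 and 0.0195), under a fold of 2. Between SP and BM in Gr-1hi, 4 of the 9 passed as higher in SP and none as lower, beside 15.5% of all genes tested. Their median log2 fold change was 0.61, against 0.56 for the members. In Gr-1lo 2 passed as higher and none as lower, beside 4.06% of all genes, and the median was -0.08, against 0.48 for the members. The inducible pair *Hspa1a* and *Hspa1b*, named after their values were seen, was higher in SP in both subsets. These are near-identical copies, so reads may be split between them. *Hspa1a* was at a mean of 13.9 CPM in SP Gr-1hi, the libraries close together, against 1.87 and 1.40 in BM Gr-1hi (log2 fold change 3.08, SE 0.35, adjusted p = 0.000695), and at 27.3 and 48.7 in SP Gr-1lo against 7.38 and 5.29 in BM Gr-1lo (2.59, SE 0.29, adjusted p = 0.00176). *Hspa1b* gave 2.90 and 2.58 (adjusted p = 0.000988 and 0.0024).

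**Figure D4:**
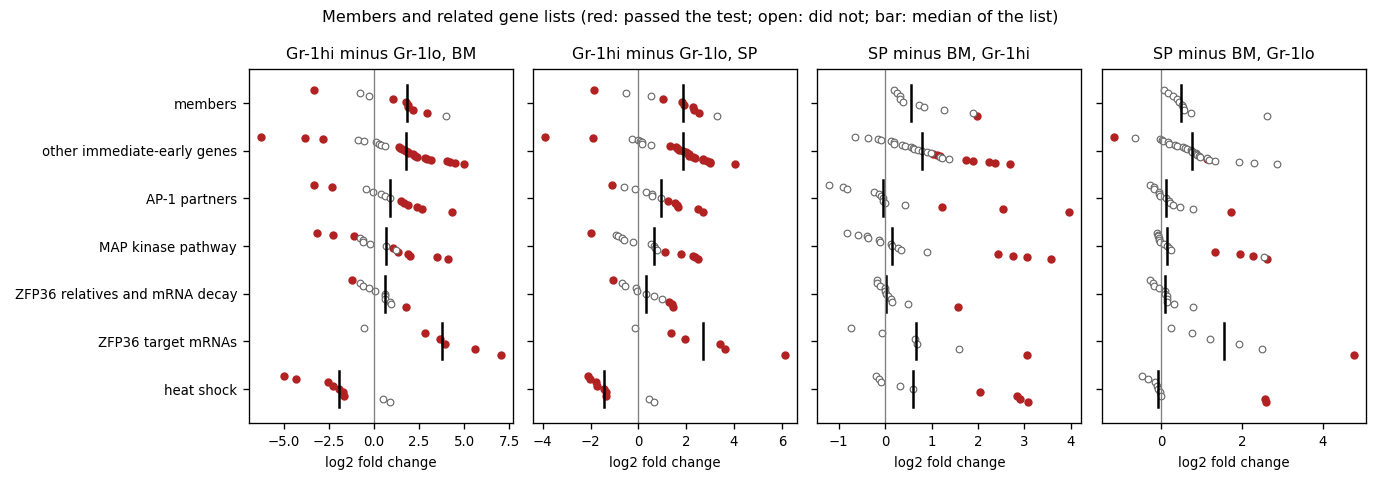
Log2 fold change of every tested gene of the members and of the 6 related lists in the 4 comparisons, each panel with its own axis, where red points passed the test and the bar is the median of the list. Between the subsets the medians of the members and of other immediate-early genes lie near 1.8 to 1.9, that of heat shock genes below 0, and few points pass between SP and BM in Gr-1lo.

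Across the 8 libraries, which share subset and tissue within groups, Pearson's r of log2 CPM was computed as a description between each member and 8597 genes with a mean of at least 10 CPM. Since the Gr-1hi and Gr-1lo libraries stand apart, r is high for any 2 genes that separate them. The gene most like *Fos* was *Ptgs2* (r = 0.96), followed by *Ier2* and *Ccnl1*, and *Egr1* was most like *Ptgs2* as well (0.93), then *Rhob* and *Ccnl1*. For *Junb* these were *Btg1* (0.99), *Zfp36* and *Scnn1a*, and for *Jund* *Abr* (0.99), *H2-Q7* and *H2-Q4*. For *Zfp36* they were *Gm25994* (0.99), *Ddx5* and *Btg2*, and for *Dusp1* *8030462N17Rik* (0.99). *Atf3* was most like *Mettl3* (0.99), *Ifi207* and *Clec4a1*, *Fosb* like *Hps3* (0.92), *Ttc33* and *Ghitm*, and *Jun* like *Dleu2* (0.89), *Rab10os* and *Ppp1r15a*. Among the 45 pairs of members the median r was 0.46, from -0.75 for *Atf3* with *Ier2* to 0.99 for *Junb* with *Zfp36*. *Fos*, *Junb*, *Jund*, *Egr1*, *Ier2*, *Dusp1* and *Zfp36* made up the 20 pairs at 0.8 or above.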

How the data were processed

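Polyadenylated RNA of 8 libraries, 2 for each of 4 groups, was sequenced as stranded pairs of reads. The authors checked reads with FastQC, trimmed them, aligned them to GRCm38 with STAR and deposited whole-number counts per gene from featureCounts, without normalization. Groups follow the labels, and libraries keep the numbers of the labels.

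Here the counts were scaled by TMM and tested with edgeR 4.0.16 in R 4.3.3 by 1 quasi-likelihood fit of all 8 libraries after filterByExpr, with 4 residual degrees of freedom and Benjamini-Hochberg adjustment over the 17650 genes tested. Genes passed if the adjusted p was 0.05 or less and the fold change 2 or more. The SE is the log2 fold change divided by the square root of F. Log ratios between libraries used a prior count of 2. TPM used exon lengths of GENCODE M21, which 241 genes lack. The procedure was tested on simulated data.

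The members and lists were chosen with earlier results of these data known. The text names the 10 members, the 3 genes of highest mean CPM of each related list, the 3 genes most like each member, and *Ly6g*, *Itgam*, *Csf1r*, *Xist* and *Ddx3y* as checks of the labels, with antisense neighbours where reads could be shared. Alternatives were RLE and upper-quartile scaling, no filter, DESeq2 1.42.0, edgeR's exact test on quantile-normalized TPM, the 4 libraries compared alone and each library left out. A further one, chosen after the data were seen, left out libraries 5 and 7. The authors also tested quantile-normalized TPM with edgeR, but the TPM used here were computed anew from the counts. The values of a few genes that the naming rule selected are not reported here.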

Additional observations from a re-analysis of the deposited data

Results flagged for a closer look

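The difference of *Atf3* between Gr-1hi and Gr-1lo cells was not the same in the 2 tissues, by the test of the interaction of tissue and subset. The log2 fold change was -1.87 in SP and -3.30 in BM, a difference of 1.43 (SE 0.38, adjusted p = 0.0412, edgeR's quasi-likelihood test, n = 2 libraries per group). *Atf3* was at 17.1 and 31.0 CPM in SP Gr-1hi and 5.79 and 6.40 in BM Gr-1hi, and at 74.0 and 102 in SP Gr-1lo and 61.5 and 58.8 in BM Gr-1lo. With any 1 of libraries 6 to 12 left out it no longer passed, with values of 0.85 to 1.68, and without library 5 it was 1.70 and passed (adjusted p = 0.00599). Of the other members none passed this test by edgeR in the fit of all 8 libraries, where 9.74% of all genes did.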

How the results depend on the processing

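The study calls the marrow cells autologous, but the labels number the libraries 5 to 12 once each, so that no 2 groups share a number. No paired analysis was therefore made. Of the 50 values of a member in a comparison, 24 kept their call and direction and 32 their direction under every alternative. The cause of the changes was not tested. With 2 libraries a group, leaving 1 out leaves a lone library that is assumed to vary like the other groups.

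Between SP and BM in Gr-1hi the count of members was 1, and it was 2 without libraries 5 and 7 and 3 on the adjusted p alone. Between the subsets it was 7 in each tissue, and at an adjusted p below 0.01 with a fold above 8 it was 1 in BM and 0 in SP, where 16.7% and 7.37% of all genes pass. Genes of the related lists called between SP and BM numbered 10 in Gr-1lo and 21 in Gr-1hi, and 6 and 12 by the exact test on quantile-normalized TPM, and 15 and 16 without libraries 5 and 7. In Gr-1hi they were 21 higher and 0 lower in SP, but 18 and 7 without library 6 and 17 and 2 without library 10. With each library left out in turn, the members called numbered 0 in every fit for SP against BM in Gr-1lo, 1 to 2 in Gr-1hi, 6 to 8 between the subsets in either tissue and 0 to 1 for the interaction. The related genes called numbered 7 to 14, 17 to 25, 49 to 54 (BM), 40 to 50 (SP) and 5 to 22 (interaction).

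With each library left out, these log2 values crossed 0. Between SP and BM in Gr-1hi they ran from -0.58 to 0.66 for *Fos*, -2.98 to 1.17 for *Fosb*, -1.35 to 2.72 for *Egr1*, -0.65 to 0.62 for *Ier2*, -0.18 to 0.69 for *Dusp1* and -0.12 to 0.63 for *Zfp36*, and in Gr-1lo from -0.11 to 0.26 for *Fosb*. Between the subsets they ran from -3.75 to 0.39 for *Fosb*, -0.40 to 1.03 for *Jun* and -0.11 to 0.60 for *Atf4* in SP, and from -0.64 to 0.20 for *Jun* and -0.020 to 0.14 for *Cnot1* in BM. For the interaction they ran from -0.88 to 0.36 for *Fos*, -3.05 to 1.09 for *Fosb*, -0.21 to 1.21 for *Jun*, -0.049 to 0.57 for *Junb*, -0.14 to 0.44 for *Jund*, -3.99 to 0.079 for *Egr1*, -0.83 to 0.44 for *Ier2* and -0.53 to 0.22 for *Zfp36*.

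Without libraries 5 and 7 the sign turned for *Fosb* between SP and BM in Gr-1lo (-0.10) and between the subsets in SP (0.54), and for the interaction of *Fos* (0.40) and *Zfp36* (0.25, and 0.019 with upper-quartile scaling). On quantile-normalized TPM it turned for *Atf4* (-0.063 in BM, -0.076 in SP) and *Cnot1* (-0.098 in BM). *Cnot1* also turned without a filter in BM (-0.041), and with RLE scaling (0.076), upper-quartile scaling (0.024) and DESeq2 (0.076) in SP. The median over all genes between the subsets was -0.17 in BM with TMM and -0.03 with RLE scaling, and -0.09 and 0.04 in SP. The log2 fold changes of this comparison are not set against the median gene, so they shift with the scaling.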
